A study of Mus musculus with 76 samples.

Results

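The promoter-associated histone mark H3K4me3 was compared between the embryonic stages E11.5 and E17.5 (days of gestation) in the wild type mouse diencephalon, the part of the forebrain that gives rise to thalamus and hypothalamus. Of the 76 samples of the series, 5 belong to this comparison (E11.5, 2 replicates, E17.5, 3 replicates), and they were chosen by their genotype, stage and mark. All were C57BL/6J embryos that carried no edit. Each replicate pooled tissue from several embryos of a single litter, 6 embryos for E11.5 and 3 for E17.5, so a replicate stands for a litter and not for an animal. Other samples used beside them were the wild type lists of H3K27ac and H3K27me3 at the same stages, wild type RNA from separate pools (4 replicates a stage), and H3K4me3 lists from homozygous humanized embryos of both stages (2 and 3 replicates), in which the mouse sequence at hs754, an enhancer that holds a CpG island in human, was replaced by the human one.

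H3K4me3 is the trimethylated form of lysine 4 on histone H3. It is written by the SET1 and MLL complexes, which are drawn to CpG islands, and it sits over the start sites of most active genes and of many genes that are held ready for use. In progenitor cells it often shares the promoters of developmental regulators with H3K27me3, the mark of Polycomb repression. Long H3K4me3 domains are typical of genes that define the identity of a cell.

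The 6 stretches of genome printed here are examples of strong regions with a peak at one stage and not at the other. Each covers 300 bp around the summit of such a peak (GRCm39, plus strand, CpG dinucleotides in capitals). The first pair is from the strongest promoters at E11.5 of genes marked at that stage alone, Dmbx1 (chr4:115796816-115797115, in an intron near the start site) and Pax7 (chr4:139558977-139559276, in an intron), with 26 and 28 CpGs.
Dmbx1: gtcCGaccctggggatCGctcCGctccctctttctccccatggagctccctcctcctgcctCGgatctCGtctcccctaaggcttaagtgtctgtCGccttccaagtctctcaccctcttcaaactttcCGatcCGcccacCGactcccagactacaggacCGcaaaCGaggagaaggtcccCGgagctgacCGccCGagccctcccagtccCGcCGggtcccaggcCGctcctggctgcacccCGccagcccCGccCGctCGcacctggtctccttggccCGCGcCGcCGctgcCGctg
Pax7: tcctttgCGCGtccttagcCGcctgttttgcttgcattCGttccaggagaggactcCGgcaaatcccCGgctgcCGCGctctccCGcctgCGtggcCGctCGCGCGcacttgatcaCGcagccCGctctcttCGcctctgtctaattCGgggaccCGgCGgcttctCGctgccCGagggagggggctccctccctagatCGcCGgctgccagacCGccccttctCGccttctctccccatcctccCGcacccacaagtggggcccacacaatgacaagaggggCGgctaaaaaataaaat
The strongest promoters at E17.5 of genes with no promoter region at E11.5, Gpr52 (chr1:160407008-160407307, in a non-coding part of an exon) and Gpr61 (chr3:108061878-108062177, in an intron), carried 7 and 3 CpGs.
Gpr52: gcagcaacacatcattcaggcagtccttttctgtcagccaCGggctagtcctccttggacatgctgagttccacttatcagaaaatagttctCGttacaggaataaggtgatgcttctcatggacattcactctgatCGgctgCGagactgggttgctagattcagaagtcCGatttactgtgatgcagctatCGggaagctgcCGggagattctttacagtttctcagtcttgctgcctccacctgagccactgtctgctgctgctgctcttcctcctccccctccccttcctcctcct
Gpr61: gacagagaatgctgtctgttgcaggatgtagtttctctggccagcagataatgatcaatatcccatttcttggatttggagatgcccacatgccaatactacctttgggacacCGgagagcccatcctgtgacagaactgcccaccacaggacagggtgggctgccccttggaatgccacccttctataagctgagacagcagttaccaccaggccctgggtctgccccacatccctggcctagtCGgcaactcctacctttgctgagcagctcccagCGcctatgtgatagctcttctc
The last pair is from the strongest regions over 5000 bp from any start site, an E11.5 region within the Nhs gene, 207517 bp from the start of Rai2 (chrX:160708773-160709072), with 3 CpGs, and an E17.5 region in an intron of Satb1 (chr17:52067500-52067799), with 11.
Nhs-Rai2: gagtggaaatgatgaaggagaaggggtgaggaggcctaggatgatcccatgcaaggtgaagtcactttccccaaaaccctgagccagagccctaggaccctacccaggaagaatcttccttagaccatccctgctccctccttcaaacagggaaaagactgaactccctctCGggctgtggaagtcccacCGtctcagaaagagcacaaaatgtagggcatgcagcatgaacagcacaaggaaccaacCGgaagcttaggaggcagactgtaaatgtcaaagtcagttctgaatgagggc
Satb1: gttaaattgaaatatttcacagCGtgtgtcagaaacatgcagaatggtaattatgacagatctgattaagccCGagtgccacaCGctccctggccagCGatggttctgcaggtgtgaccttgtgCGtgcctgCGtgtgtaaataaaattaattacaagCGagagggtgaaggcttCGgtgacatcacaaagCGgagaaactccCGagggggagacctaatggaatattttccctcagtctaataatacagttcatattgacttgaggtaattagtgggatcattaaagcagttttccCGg
The E11.5 promoter pair thus held more CpGs than the other 4 stretches. The regions of each stage as a whole did not show this contrast, and their CpG values are given with the other marks.

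The deposited peak lists give, for each peak, its ends and its fold enrichment, the height of the H3K4me3 signal at the summit over the background expected there. They hold no reads, so the sequencing depth of each library is unknown and no list could be thinned to a common depth. After chromosome Y and unplaced sequence were left out, the lists held 25067 and 23853 peaks (E11.5) and 24402, 24864 and 23458 peaks (E17.5). Median fold enrichment was lower at E11.5 (18.2 and 21.8) than at E17.5 (28.2, 28.1 and 29.5), and the ranges did not overlap. Between 73.1% and 75.5% of the peaks lay within 1000 bp of an annotated start site, and the stages overlapped in this share. Peak names began with a different letter at each stage, whose meaning the labels do not give, so whatever it stands for cannot be told apart from the stage. In whole tissue, fewer cells of a type and less mark or RNA per cell cannot be told apart.

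The tissue label was checked against marker genes. Of 35 transcription factor and signalling genes of the diencephalon and its neighbours, 34 had a promoter region in all 5 lists. Of the 39 Hox genes, which pattern the hindbrain and spinal cord, 28 had no promoter region in any list, and their summed RNA in CPM (read counts scaled to the library total) was 0.975 to 1.94 at E11.5 against 0.0421 to 0.424 at E17.5. RNA of 22 surface ectoderm, neural crest and mesenchyme genes summed to 244.7 to 312.2 CPM at E11.5 against 44.8 to 65.9 at E17.5, with Foxd3, Myf5 and Hand2 at 0 in every E17.5 library. The 16 erythroid genes summed to 1905 to 3933 CPM at E11.5 against 258 to 1081 at E17.5. RNA of these 2 lists thus took a larger part of the E11.5 libraries, and the part of such cells in the results below was not tested.

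Most H3K4me3 was shared. Merging the peaks of the 5 lists wherever they overlapped by 1 bp gave 29900 regions, and 18213 of them (60.9%) held a peak in every list. A peak in both E11.5 lists and in no E17.5 list was found in 1467 regions (4.91% of all regions), and a peak in all E17.5 lists and in no E11.5 list in 1801 (6.02%). The other 8419 regions were present in some lists of a stage and not in others. A single region cannot pass a test of presence here, since 2 lists against 3 cannot give a Fisher's exact p below 0.1 (two-sided). In bp, lists of the same stage overlapped with a Jaccard index of 0.844 at E11.5 against 0.865 to 0.874 at E17.5, against 0.702 to 0.713 between stages. The mean difference of 0.156 had the smallest p that an exact permutation of the stage labels over 5 lists can give (p = 0.1, one-sided).

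The order of the 2 counts changed when E11.5 was judged by 1 list. With the top 23458 peaks of every list the counts were 1274 and 1674, and at a stricter significance of the peaks (−log10 q of at least 5) they were 784 and 1548. Leaving out E11.5 replicate 1 gave 3034 and 2148, and leaving out E11.5 replicate 2 gave 3917 and 2084, so with 1 list at E11.5 the E11.5-only count was the larger. At 2 lists against 2, leaving out E17.5 replicate 1, 2 or 3, the counts were 1609 and 2106, 1666 and 2114, and 1536 and 2427, and the E17.5-only count was the larger in each. Of all regions, 3249 (10.9%) were seen in 1 E11.5 list and nowhere else.

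Regions marked at one stage were low. The median fold enrichment in the lists that held them was 4.2 for E11.5-only and 5.32 for E17.5-only regions, against 42.0 for regions in every list. Median widths were 605 bp, 641 bp and 2235 bp in the same order. A mean fold enrichment above 10 was reached by 17 E11.5-only regions and 140 E17.5-only regions, against 15585 of the shared ones. Promoters made up 37.3% and 40.3% of the E11.5-only and E17.5-only regions and 86.5% of the shared regions. Of the E11.5-only regions 25.2% lay within 1000 bp of a region present in every list, against 9.77% of the E17.5-only regions.

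Among 21603 protein-coding genes, 60 (0.278%) had all their promoter regions marked at E11.5 alone and 122 (0.565%) at E17.5 alone, while 14148 had a promoter region in every list. The 10 strongest genes of each group are described here. These genes were picked by their presence and height, so the heights are given without a test.

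At E11.5 the leading pair were homeobox transcription factors of the early dorsal brain. Dmbx1, which acts in the early midbrain and diencephalon, had a fold enrichment of 31.1 and 22.9 in the 2 E11.5 lists over domains of 5203 and 5204 bp (merged region chr4:115792370-115797618), and no peak at E17.5. Its RNA was 22.9, 45.6, 47.0 and 43.7 CPM in the 4 E11.5 libraries and 1.2, 0.816, 1.079 and 0.426 CPM at E17.5. The stages did not overlap, and RNA fell by 5.50 on the log2 scale (SE 0.37, adjusted p = 1.26e-06, edgeR). Pax7, a paired-box factor of the dorsal neural tube, had a fold enrichment of 22.9 and 23.2 over 4729 and 4958 bp (chr4:139556695-139561652). Its RNA was 29.9 to 36.4 CPM at E11.5 against 1.49 to 4.17 CPM at E17.5 (log2 change −3.63, SE 0.30, adjusted p = 4.49e-06, edgeR). Both promoters held H3K27ac, a mark of active promoters and enhancers, in 2 of 2 E11.5 lists and in none of 3 E17.5 lists. H3K27me3 was present at both in every list of both stages, so the promoters that lost H3K4me3 peaks kept the Polycomb mark.

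The other 8 E11.5-only promoters were much lower, with fold enrichments between 5.32 and 9.49. They were Arhgap45, Mfap4 (a microfibril protein of connective tissue), Tfap2c (a transcription factor of surface ectoderm and germ cells), Adtrp, Cntfr (the receptor for ciliary neurotrophic factor), Qprt (an enzyme of NAD synthesis), Tmem119 and Krt79 (a keratin). RNA passed the expression filter for 6 of these 8, and it fell in all 6, from a log2 change of −0.90 for Cntfr to −3.29 for Qprt. The Cntfr call was lost when E17.5 RNA replicate 2, 3 or 4 was left out (adjusted p of 0.0515, 0.0593 and 0.0556, edgeR). The Cntfr region also held a low peak in humanized E17.5 replicate 3 (3.95). It held 0 of the 15 start sites of the gene, with its summit 944 bp from the nearest and 14049 bp from the outermost one. The regions at Adtrp, Tmem119 and Krt79 held no start site of their gene either, while RNA was counted over whole genes. H3K27me3 covered Arhgap45, Tfap2c, Qprt and Krt79 in every list of both stages, and Tmem119 in 3 of 3 lists at E17.5 and none at E11.5.

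At E17.5 the leading promoters included those of the orphan receptors Gpr52 and Gpr61 and of the calcium buffer Calb2. Gpr52, a G protein-coupled receptor of the brain, had a fold enrichment of 26.9, 21.0 and 28.6 (chr1:160404795-160407938) and no peak at E11.5. Its RNA was 0.0409 to 0.104 CPM in the 4 E11.5 libraries and 1.41, 4.84, 4.95 and 6.38 CPM at E17.5 (log2 change 5.80, SE 0.59, adjusted p = 1.75e-05, edgeR). Replicate 1 was the lowest of the E17.5 libraries and still lay above every E11.5 library. Gpr61, of the same receptor class, had 23.5, 20.1 and 28.4 over 1155, 1370 and 1139 bp (chr3:108061009-108062378), with RNA of 0.841 to 1.51 CPM at E11.5 against 8.73 to 14.3 CPM at E17.5 (log2 change 3.22). Kctd4, a potassium channel tetramerization domain protein, had 23.5, 24.8 and 18.6 over domains of 4409, 4507 and 4552 bp, and its RNA rose by 5.11 on the log2 scale.

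Pcp4, a small calmodulin regulator of neurons, had a fold enrichment of 24.7, 21.9 and 13.7 at E17.5 and RNA of 0 to 0.368 CPM at E11.5 against 9.13 to 16.8 CPM at E17.5 (log2 change 6.21). Calb2, also called calretinin, had 22.9, 15.4 and 14.7. Its RNA was 0.631 to 2.04 CPM at E11.5 against 294.5, 122.1, 132.0 and 139.7 CPM at E17.5 (log2 change 7.26). In the humanized embryos the promoters of Calb2 (5.99 and 3.06 at E11.5) and Cfc1 (3.50 and 3.32) held a peak in all 5 lists, so their absence at E11.5 was not seen in those litters. Ntsr2, a neurotensin receptor of astrocytes, had 13.2, 22.7 and 15.0, and its RNA was at 0 in all 4 E11.5 libraries and 1.25 to 2.47 CPM at E17.5. Ipcef1, Nrip2, Inpp5j and Cfc1 completed the list at 15.7 to 23.7. RNA of Nrip2 was 1.10 to 2.96 CPM at E11.5 against 3.11 to 4.95 CPM at E17.5, a difference that passed the test (log2 change 0.88, adjusted p = 0.0332, edgeR) but not without E11.5 replicate 1, 2 or 4 or E17.5 replicate 2 or 3 (0.0569 to 0.0834). H3K27ac was absent from both E11.5 lists and present in all 3 E17.5 lists at Gpr52, Gpr61, Kctd4, Ipcef1, Pcp4, Nrip2 and Calb2.

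**Figure D1:**
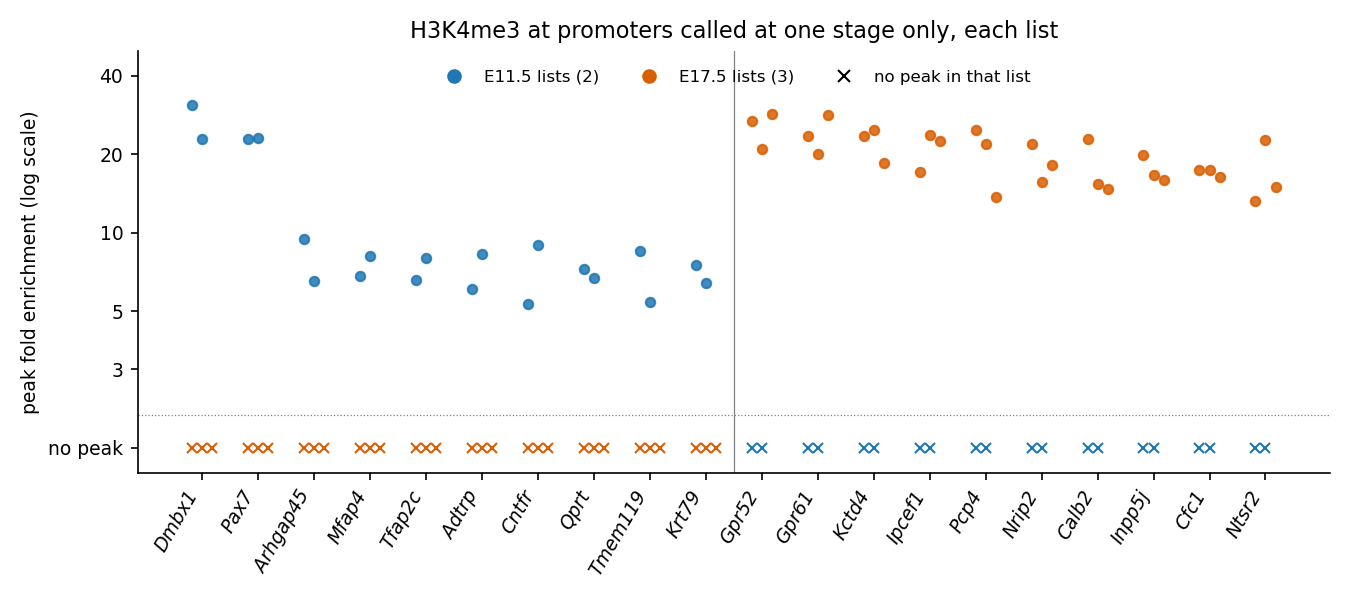
Fold enrichment of H3K4me3 in each list (points, 2 E11.5 and 3 E17.5 lists) at the 10 strongest promoters a stage of protein-coding genes whose promoter regions were all marked at that stage alone, with a cross where a list holds no peak. Dmbx1 (31.1 and 22.9) and Pax7 (22.9 and 23.2) stand above the other E11.5 genes, while the E17.5 genes lie between 13.2 and 28.6.

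Most genes with a stage-only promoter region also had another start site marked in every list. Of 310 genes with an E11.5-only promoter region, 232 (74.8%) had one, and of 343 with an E17.5-only region, 205 (59.8%). At E17.5 the strongest were at internal start sites. Dock9, a guanine nucleotide exchange factor that acts in dendrites, had an E17.5-only region with its summit in a coding exon (chr14:121973280-121977304) at 29.1, 38.8 and 35.7, 56613 bp from its other marked promoter. That other promoter had 37.7 and 43.6 at E11.5 against 50.5, 62.0 and 50.2 at E17.5, a difference that did not pass the test once the lists were centred (log2 0.09, SE 0.18, adjusted p = 0.78, limma). RNA of Dock9 was 22.5 to 28.3 CPM at E11.5 against 58.3 to 164.6 CPM at E17.5 (log2 change 2.46, adjusted p = 7.15e-05, edgeR).

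The same arrangement was seen at Lnx1 (35.3, 28.8 and 31.7, 25478 bp from the lasting promoter), an E3 ubiquitin ligase that binds Numb, and at Rcan2 (34.4, 29.6 and 29.8, 148045 bp away), a regulator of calcineurin. Dlg1, a synaptic scaffold of the membrane-associated guanylate kinase family, had 25.1, 32.6 and 22.4 at 88023 bp, and Shank2, a scaffold of excitatory synapses, had 18.4, 33.0 and 28.2 at 40133 bp. The Rcan2 region held low peaks in both humanized E11.5 lists (4.03 and 4.24). RNA rose for Lnx1 (log2 5.22), Rcan2 (3.19) and Shank2 (1.80). Dlg1 RNA did not pass the test (log2 −0.21, SE 0.31, adjusted p = 0.58, edgeR), with E17.5 replicate 1 at 26.4 CPM and the other E17.5 libraries at 63.9 to 67.7. H3K27ac appeared with the new region at Dock9, Dlg1 and Shank2, in none of 2 E11.5 lists and all 3 E17.5 lists.

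At E11.5 such regions were found at Kcnh2 (15.8 and 10.8), a potassium channel, Epo (12.8 and 12.6), the erythroid hormone erythropoietin, Stard3 (10.4 and 10.8) and Sinhcaf (10.9 and 9.45), a subunit of the SIN3 deacetylase complex. They lay 27108, 42535, 11693 and 537 bp from the lasting promoter, so that the region at Sinhcaf was close beside it. The lasting region at Epo held the outermost of the 2 annotated start sites of that gene, 1649 bp from the summit. Whether the mark there belongs to Epo was not tested. The Epo region also held a peak in 2 of the 3 humanized E17.5 lists (4.38 and 3.49). RNA fell for Sinhcaf (log2 −3.60, adjusted p = 2.87e-07, edgeR) and did not pass for Kcnh2 or Stard3.

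Regions over 5000 bp from a start site numbered 471 among the E11.5-only and 739 among the E17.5-only regions. The strongest E11.5-only one, in the Nhs gene (chrX:160707955-160709777), had a fold enrichment of 13.4 and 13.5. The other regions are named by the nearest start site of a protein-coding gene, and start sites of other annotated transcripts lay closer. Those of Skor2 (10.9 and 11.6, 11717 bp away) and Msrb3 (10.9 and 11.3, 113489 bp away) followed, and both held H3K27me3 in every list of both stages and no H3K27ac. At E17.5 the strongest was in an intron of Satb1 (chr17:52067222-52068771, 15.6, 24.95 and 21.6), a chromatin organizer of maturing neurons, with H3K27ac in 0 of 2 E11.5 lists and 3 of 3 E17.5 lists. RNA of Satb1 itself was lower at E17.5 (77.2 to 114.1 CPM against 27.6 to 62.5 CPM, log2 change −0.89, adjusted p = 0.0141, edgeR). Regions 98074 bp from Tbx4 (22.1, 22.1 and 16.8) and 200099 bp from Adgrl2 (17.3, 18.5 and 19.08) completed the 3 strongest, and the latter lay within the non-coding genes Gm30382 and Gm66825.

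In regions present in every list, the height of the signal was compared on the log2 scale with limma. Lists were first centred on their medians, because the E17.5 lists were higher as a whole by 0.33 log2 units, so a change is relative to the typical shared region. At an adjusted p under 0.05, 1065 of 18213 regions (5.85%) were higher at E17.5 and 851 (4.67%) were lower. Without centring the counts were 2913 and 445, which moved the higher share of calls from 55.6% to 86.7%. The fit leaned on the 2 E11.5 lists. Without E11.5 replicate 1 only 20 and 10 regions were called and without E11.5 replicate 2 there were 212 and 88, while leaving out E17.5 replicate 1, 2 or 3 gave 449 and 403, 556 and 436, and 525 and 481.

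Taken by the strongest promoter region of each gene, 508 of 14135 protein-coding genes (3.59%) were higher and 430 (3.04%) were lower. The largest changes named below were instead sought over every called promoter region of a gene, not its strongest one alone. The largest rise was at an internal promoter of Foxp4, a forkhead repressor of neural progenitors and neurons (chr17:48187315-48190963, summit in a coding exon). Fold enrichment there was 5.11 and 4.74 at E11.5 against 47.9, 51.8 and 44.8 at E17.5, with no overlap between the stages (log2 change 2.96, SE 0.17, adjusted p = 0.00164, limma). RNA of the gene went the other way, from 119.1 to 160.3 CPM at E11.5 to 124.0, 52.6, 59.7 and 50.7 CPM at E17.5 (log2 change −0.94, adjusted p = 0.0185, edgeR), and this call was lost when E11.5 replicate 2 or E17.5 replicate 2, 3 or 4 was left out (0.0512 to 0.0573).

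Scg2, secretogranin II of neuronal dense-core vesicles, had 5.59 and 4.04 at E11.5 against 44.0, 48.1 and 38.3 at E17.5 at its single start site (chr1:79414237-79418276). The peaks also lengthened, from 495 and 273 bp to 3688, 4040 and 3667 bp, and RNA rose from between 5.83 and 10.04 CPM to between 286 and 388 CPM (log2 change 5.30, adjusted p = 2.87e-07, edgeR). Here height, width and RNA changed together with no overlap between stages. The other large rises were at Pde2a (a cyclic nucleotide phosphodiesterase), Arhgef15 (an exchange factor of neurons and vessels), Ankrd6, Fxyd1 (a sodium pump regulator), Mbnl1 (a splicing factor) and Rapgef2 (a Rap exchange factor), with log2 changes of 2.58 to 2.88. The summit of the Fxyd1 region lay downstream of that gene, 1599 bp from its nearest start site. Rapgef2 was uneven at E11.5 (3.81 and 10.4, against 46.9, 46.6 and 48.0), and its call, like that of Fxyd1, was lost without E11.5 replicate 1 (adjusted p = 0.0503 for both, limma). RNA rose for Arhgef15, Fxyd1, Mbnl1 and Rapgef2 by 1.085 to 1.56 and did not pass for Ankrd6 (0.09).

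The largest fall was at Pax3, a paired-box factor of the dorsal neural tube and neural crest (chr1:78163098-78175232). Fold enrichment was 36.2 and 30.3 at E11.5 against 4.33, 4.95 and 4.196 at E17.5 (log2 change −3.21, SE 0.18, adjusted p = 0.00164, limma), and the domain shrank from 12135 and 11899 bp to 1495, 1419 and 417 bp. RNA was 37.9 to 58.4 CPM at E11.5 against 1.79 to 2.82 CPM at E17.5. Dbx1, a homeobox factor of ventricular zone progenitors, fell from 33.6 and 39.7 to 6.15, 6.77 and 6.24, and Foxa2, a forkhead factor of the floor plate, from 23.1 and 21.5 to 4.33, 4.43 and 4.80. Mfng, a glycosyltransferase that tunes Notch receptors, fell from 42.8 and 40.8 to 5.36, 7.81 and 7.41, a call lost without E11.5 replicate 1 (adjusted p = 0.0503, limma). RNA fell for all 4 genes, by 3.21 to 5.31 on the log2 scale.

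Falls at internal start sites did not always go with the RNA of the whole gene. Dnmt3a, the de novo DNA methyltransferase, lost height at a start site whose summit was 86000 bp from the outermost one (33.3 and 33.9 at E11.5, 7.04, 8.20 and 3.71 at E17.5). RNA of the gene was 247.7 to 260.7 CPM at E11.5 against 260.0 to 361.1 CPM at E17.5 (log2 change 0.34, SE 0.16, adjusted p = 0.0935, edgeR). The height call at Dnmt3a was lost without either E11.5 list (adjusted p of 0.0539 and 0.0508, limma). Map1b, a microtubule protein of neurons, had 29.4 and 27.1 at E11.5 against 6.38, 4.43 and 5.50 at E17.5, 72448 bp from its outermost start site, and its RNA rose (log2 1.49, adjusted p = 6.98e-04, edgeR). The height call at Map1b was lost without E11.5 replicate 1 (adjusted p = 0.0503, limma). Aim2, a cytosolic DNA sensor, and Angptl2, a secreted angiopoietin-like protein, also fell in height (log2 changes −2.83 and −2.59) and in RNA (−1.67 and −1.39).

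**Figure D2:**
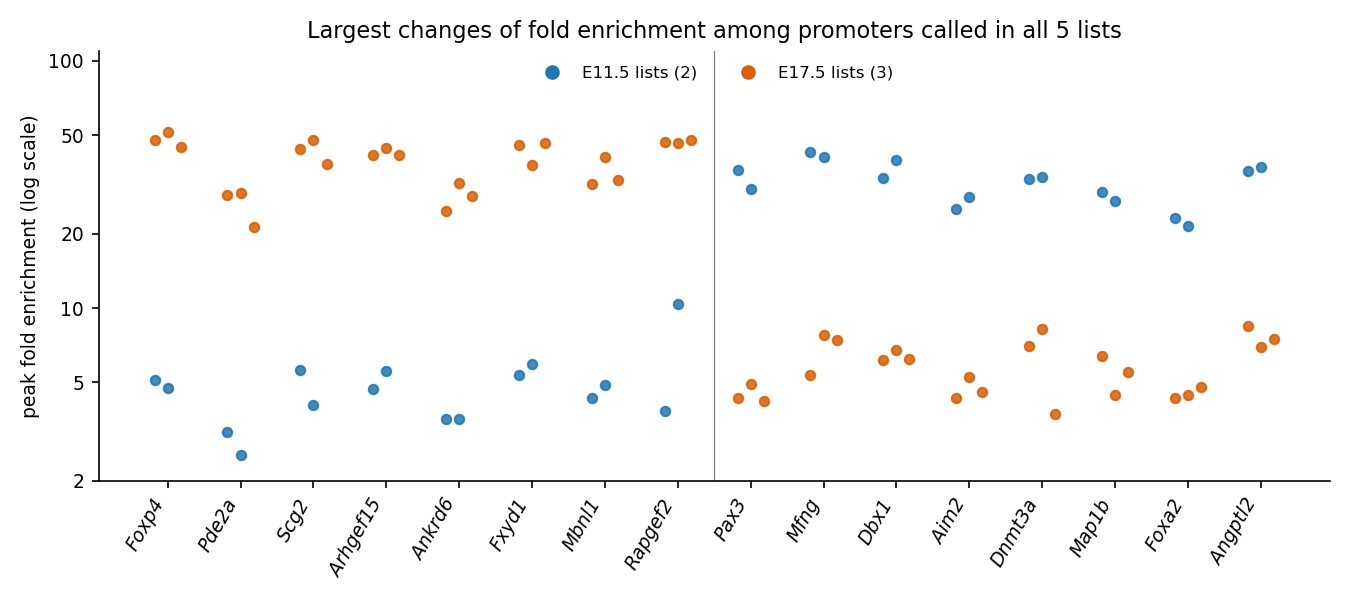
Fold enrichment in each list (points, log axis) at the 8 promoters with the largest rise and the 8 with the largest fall among regions present in all 5 lists. The points of the stages lie apart, from Foxp4 (4.74 and 5.11 against 44.8 to 51.8) to Pax3 (30.3 and 36.2 against 4.196 to 4.95). The genes were picked by this change, so the gap between the stages follows from the choice.

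Width passed the test at more regions than height. After the same centring (the E17.5 lists were wider by 0.07 log2 units), 3680 regions (20.2%) were wider at E17.5 and 3353 (18.4%) were narrower. The order was the other way among called changes of 2-fold or more, with 679 wider and 361 narrower regions against 682 higher and 537 lower ones. Without centring the counts were 4411 and 2323, and the wider share of calls moved from 52.3% to 65.5%. Leaving out any 1 of the 5 lists gave 2788 to 3047 wider and 1953 to 2503 narrower regions, so here the calls did not hang on a single E11.5 list. The narrower count moved by over 1.5 times without E11.5 replicate 1 (1953) or E11.5 replicate 2 (2116).

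The promoter that widened most was at Zfp385b. Zfp385b, a zinc finger gene, went from 295 and 272 bp to 3098, 3116 and 2937 bp (log2 change 3.36, SE 0.06, adjusted p = 1.32e-04, limma). Glra2, a glycine receptor subunit, went from 239 and 681 bp to 4017, 4640 and 4225 bp, and Pde4d, a cyclic AMP phosphodiesterase, from 249 and 882 bp to 4762, 4508 and 4819 bp. Nup93, a nuclear pore scaffold, widened from 503 and 570 bp to 4892, 4910 and 4653 bp at an internal start site while its RNA fell (log2 −1.47, adjusted p = 1.24e-04, edgeR). RNA rose for Zfp385b (2.58), Glra2 (6.80) and Pde4d (1.88).

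The promoters that narrowed most after Pax3 were at Olig3 and Six2. Olig3, a basic helix-loop-helix factor of thalamic and other dorsal progenitors, had domains of 12791 and 12882 bp at E11.5 against 1958, 1739 and 1626 bp at E17.5 (chr10:19226488-19239575), and its RNA was 55.1 to 90.8 CPM against 0.707 to 1.06 CPM. Six2, a homeobox factor of facial and kidney mesenchyme, went from 3388 and 3346 bp to 553, 815 and 263 bp. C1qtnf5 and Mest (an imprinted gene) followed, at log2 changes of −2.79 and −2.77. Olig3 kept a clear peak at E17.5 (fold enrichment 41.8 and 37.7 at E11.5, 20.7, 12.6 and 12.5 at E17.5).

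Gene groups were then read against all protein-coding genes, of which 3.59% were higher and 3.04% lower in height, and 17.7% wider and 21.0% narrower. Of 24 early progenitor and fetal timing genes, all with a promoter region in every list, 11 were lower in height and 20 were narrower by limma. None was higher or wider, at an adjusted or an unadjusted p under 0.05, and 18 were lower in height at the unadjusted level. The median log2 change of the 24 was −0.85 in height and −0.58 in width, against −0.14 and −0.06 over all genes. In RNA, 22 of 24 fell and 1 rose, with a median of −3.19.

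Hmga2, a chromatin protein of fetal progenitors, had a fold enrichment of 57.7 and 57.5 at E11.5 against 31.4, 29.4 and 29.5 at E17.5 (log2 change −1.26, SE 0.17, adjusted p = 0.00662, limma), and its RNA was 203.8 to 232.1 CPM against 2.38 to 3.64 CPM. Lin28a, the RNA-binding protein that blocks let-7 maturation, had 42.8 and 31.7 against 9.05, 21.1 and 18.98 (log2 change −1.59). Nes, the progenitor intermediate filament nestin, had 69.6 and 65.2 against 36.9, 38.5 and 31.4 (−1.25), and Ccnd2, cyclin D2, had 49.5 and 63.7 against 20.7, 19.7 and 24.95 (−1.70). All 4 promoters kept a peak of 9.05 or more in every E17.5 list. Fabp7, the fatty acid binding protein of radial glia, was the gene of the list whose RNA rose (log2 1.40, adjusted p = 0.0212, edgeR), and its promoter height fell (27.5 and 44.6 against 14.0, 20.6 and 15.8, log2 change −1.41).

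Of 30 neuronal maturation and synapse genes, 12 were higher in height, 21 were wider and 28 rose in RNA. None was called down in height or width by limma or in RNA by edgeR or DESeq2, also at an unadjusted p under 0.05. Median log2 changes were 0.49 in height, 0.60 in width and 3.05 in RNA. Grin1, the obligatory NMDA receptor subunit, had a fold enrichment of 12.6 and 12.003 at E11.5 against 60.5, 57.0 and 60.7 at E17.5 (log2 change 1.95, SE 0.17, adjusted p = 0.00306, limma), over peaks of 960 and 1007 bp against 2700, 2827 and 2829 bp. Scn2a, a voltage-gated sodium channel, had 6.33 and 6.86 against 42.4, 44.7 and 45.3 (log2 change 2.42). Gria1, an AMPA receptor subunit, and Camk2b, a calcium/calmodulin-dependent kinase, rose by 1.76 and 1.84. All of these start sites already carried a peak in both E11.5 lists, and H3K27me3 covered Grin1, Camk2b, Grin2b and Kcnc1 in every list of both stages.

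The median height and width changes of the 2 lists kept their signs under other settings, but the number of calls changed. Without centring, 8 progenitor genes were lower and 19 synapse genes were higher in height. Without E11.5 replicate 1 the height calls were 0 of 24 and 1 of 30, without E11.5 replicate 2 they were 0 and 4, and without an E17.5 list 6 to 7 in each list. At an unadjusted p under 0.05, 16 and 12 progenitor genes were lower without E11.5 replicate 1 and 2. In contrast, 16 to 19 progenitor genes were narrower and 18 to 21 synapse genes were wider whichever list was left out. Over all protein-coding genes the count of lower promoters was 5 without E11.5 replicate 1 and 29 without E11.5 replicate 2.

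Regional transcription factors split. Of 33 tested, 2 were higher and 12 lower in height, 8 wider and 13 narrower, and 9 rose and 16 fell in RNA. Those lower were Irx1, Irx2 and Irx3 (homeobox factors of the thalamic field and beyond), Barhl2 (50.0 and 53.6 at E11.5 against 11.9, 10.5 and 15.6, log2 change −2.37), Otx2, Emx2, Gata2, Gata3, Wnt3a, Olig3, Pax2 and Pax3. Lhx2, a LIM homeobox factor of forebrain progenitors and thalamic neurons, was higher in height (16.0 and 19.8 against 39.9, 45.8 and 41.0), and its RNA fell (log2 −1.04, adjusted p = 0.00451, edgeR). The height call at Lhx2 was lost under the replicate block (adjusted p = 0.0593, limma) and with any 1 list left out (0.0589 to 0.128). Wnt1, a signalling protein of the dorsal midline, rose in height from a low level (3.22 and 4.98 against 10.6, 16.4 and 9.70) while the region narrowed from 3307 and 3129 bp to 1022, 1164 and 976 bp and RNA fell by 4.39. The direction at Wnt1 thus depended on whether height or width was read. Without E11.5 replicate 1, 1 of the 33 promoters was called lower in height, and without E11.5 replicate 2 it was 2, while none was called higher with any 1 list left out (2 to 4 at an unadjusted p under 0.05, limma).

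Some astrocyte and hormone genes had a promoter region at E17.5 alone. Of 24 astrocyte genes, 3 had a promoter at E17.5 alone (against 0.565% of all protein-coding genes). They were Hepacam, an adhesion molecule (12.3, 10.5 and 10.6), Aldoc, an aldolase (9.93, 6.06 and 11.04), and Aqp4, the water channel of astrocyte endfeet (4.33, 4.33 and 5.04), and RNA rose at all 3, by 8.08, 5.71 and 6.76. RNA rose for 20 of the 24 genes, against 32.2% of all protein-coding genes tested. Slc6a11, a GABA transporter, and Sparcl1 rose in height, by 1.10 and 1.12, while Fgfr3, also a receptor of progenitors, and Acsbg1 fell by 1.03 and 1.02. The list was thus split in height, and 6 of 17 promoters were wider and 2 narrower. All 4 height calls were lost without either E11.5 list (adjusted p of 0.0625 to 0.15, limma), those of Fgfr3 and Acsbg1 also under the replicate block (0.07 and 0.0574), and that of Fgfr3 without centring (0.0833) and with quantile scaling (0.062). Of 13 oligodendrocyte lineage genes tested, none was higher in height by limma (1 at an unadjusted p under 0.05) and 2, Olig2 and Nkx6-2, were lower, by log2 changes of −1.04 and −2.21. Of the same 13, 3 were wider and 1 narrower, and in RNA 12 of 18 rose and 2 fell. The Olig2 call was lost without centring (adjusted p = 0.0796, limma), under the replicate block (0.0833) and with any 1 list left out (0.0681 to 0.195), and without centring 2 genes of the list were higher and 1 lower.

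Of 19 neuropeptide and hormone genes with an annotated match, Oxt, the hormone oxytocin, had a region at E17.5 alone (5.23, 4.44 and 6.24) that held a peak in both humanized E11.5 lists (5.09 and 4.41), and Pdyn, prodynorphin, rose in height by 1.03 and in RNA by 4.93. Of the 15 that passed the expression filter in RNA, 13 rose and 1 fell, against 32.2% of all protein-coding genes tested rising. By DESeq2 16 of 19 rose and 1 fell. In width, 6 of 11 tested were wider and 1 narrower, against 17.7% and 21.0% of all genes.

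The lists of other cell types moved as follows. Of 15 ectoderm, neural crest and mesenchyme genes tested, 8 were lower in height (among them Tfap2a, Msx1, Msx2 and Alx4), 10 were narrower, 1 (Tbx1) was higher, and 14 of 17 fell in RNA. Without E11.5 replicate 1 or 2 none of the 15 was called in height by limma, with 8 and 9 lower at an unadjusted p under 0.05. Of 8 choroid plexus and meningeal genes tested, 3 were lower (Otx2, Foxc1 and Tbx18), calls that were all lost without either E11.5 list (adjusted p of 0.0549 to 0.181, limma). In RNA 10 of 18 genes of that list rose and 6 fell, with a median log2 change of 1.43, and Lum, a proteoglycan of fibroblasts, had a promoter at E11.5 alone (4.09 and 3.66). Of 16 erythroid genes, Ermap had a promoter at E11.5 alone (6.81 and 6.15) and 11 fell in RNA. Of 20 microglia genes, 15 had no promoter region and Tmem119 was marked at E11.5 alone, with a log2 change of −2.23 in its RNA. RNA of the list summed to 101.9 to 125.8 CPM at E11.5. At E17.5 it was 158.8 CPM in replicate 1 and 91.3 to 94.8 CPM in the other libraries. Of the 20 genes, 4 fell and 1 rose in RNA by edgeR. Of 14 endothelial and pericyte genes tested, 1 was wider and 2 were narrower. In height none was called by limma, with 2 higher and 3 lower at an unadjusted p under 0.05, and 7 of 20 genes rose and 2 fell in RNA.

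The 24 cytosolic ribosomal protein genes were narrower at 20 promoters and lower at 1 (Rpl4), and 21 fell in RNA. The height call at Rpl4 was lost without centring and with quantile scaling, and the narrower count was 13 without centring and 10 to 14 with 1 list left out (10 without E11.5 replicate 1). Of the Hox genes, Hoxb4 had a low region at E11.5 alone (4.80 and 6.15), Hoxc6 was higher, and Hoxd9 and Hoxd13 were among those lower, at fold enrichments of 2.47 to 13.7 for these 3. Their height calls were each lost without E11.5 replicate 1 and without E11.5 replicate 2. Of 20 germline genes that DNA methylation holds silent, 17 had no promoter region, against 31.8% of all protein-coding genes. RNA of the 20 summed to 6.11 to 7.12 CPM at E11.5 against 11.8 to 30.2 at E17.5. Only 5 passed the expression filter, and all 5 rose. A gene this low can pass that filter through its higher stage alone, so this count is partly set by the filter. By DESeq2 7 of 11 rose and 0 fell, against 32.0% of all protein-coding genes rising.

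**Figure D3:**
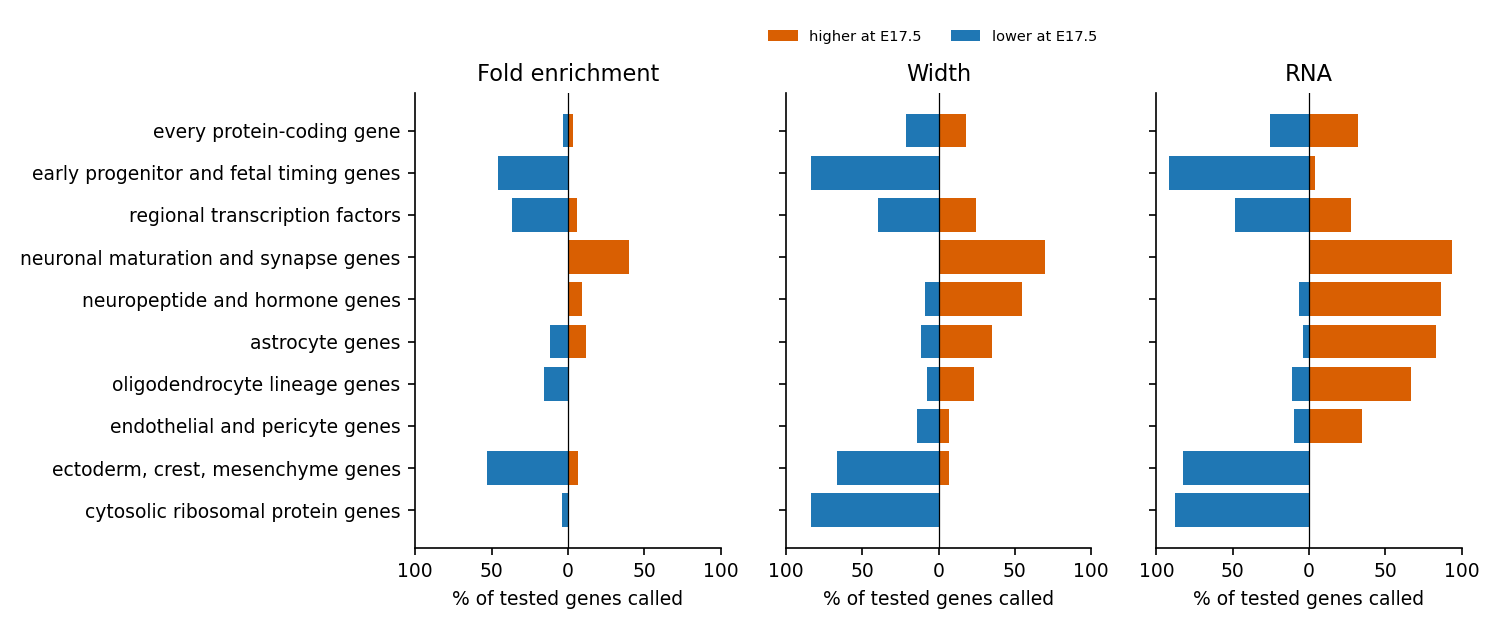
Percent of the tested genes of each list that were called up or down at E17.5 in H3K4me3 height, H3K4me3 width and RNA, for lists with at least 10 tested genes, beside every protein-coding gene. Progenitor genes were called down alone in height and width (11 and 20 of 24) and synapse genes up alone (12 and 21 of 30).

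RNA from the separate pools was set beside the promoter groups. In edgeR's quasi-likelihood test 5393 of 18583 genes (29.0%) rose and 4963 (26.7%) fell at E17.5. Of the 122 genes with promoters at E17.5 alone, 85 were tested, 76 rose and 2 fell, with a median log2 change of 3.22. Of the 60 with promoters at E11.5 alone, 40 were tested, 31 fell and 2 rose, with a median of −2.18. Over all 14336 protein-coding genes tested, 4620 rose and 3688 fell, with a median of 0.06. E17.5 RNA replicate 1 stood apart from its group, and without it the counts were 80 of 91 rising and 34 of 41 falling for the same 2 classes. A gene can pass the filter on low counts through its level at a single stage. Without that filter, 85 of 114 genes rose and 2 fell in the E17.5-only class. In the E11.5-only class 37 of 59 fell and 3 rose, and over all protein-coding genes 5042 of 18090 rose and 3630 fell.

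Genes with a higher promoter rose in RNA in 361 of 430 cases (84.0%), and genes with a lower promoter fell in 256 of 370 (69.2%). For wider promoters 1954 of 2342 (83.4%) rose, and for narrower ones 1705 of 2775 (61.4%) fell. Genes whose promoter height was not called rose in 3706 and fell in 3192 of 12365 cases. In the opposite direction, 35 genes with a lower promoter (9.46%) rose in RNA and 15 with a higher promoter (3.49%) fell, and the difference between these shares was not tested.

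**Figure D4:**
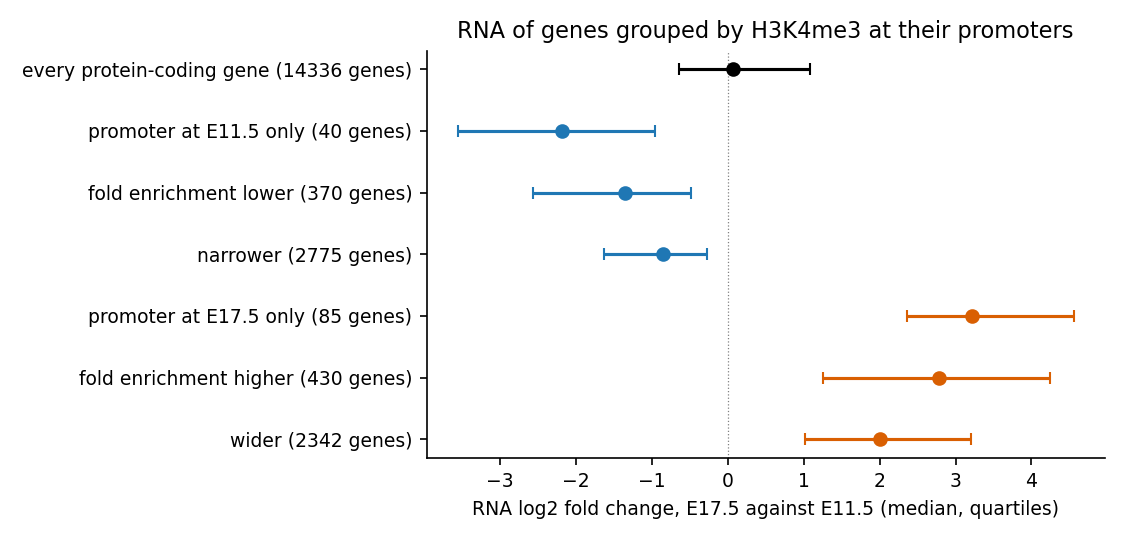
RNA change from E11.5 to E17.5 (log2, median as point and quartiles as line) for protein-coding genes grouped by their promoter. Genes marked at E17.5 alone have a median of 3.22, those with a higher promoter 2.78 and those with a wider promoter 2.00, while genes marked at E11.5 alone have −2.18.

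The other marks and the sequence of the regions were read as descriptions. The paper reports that its lot of H3K27ac antibody also bound an acetylation of histone H2B (H2BK5ac). The H3K27ac peaks used throughout can therefore include that mark. H3K27ac of E11.5 covered 46.1% of E11.5-only and 10.8% of E17.5-only regions, and H3K27ac of E17.5 covered 35.0% and 57.4%, against 48.3% (E11.5) and 66.0% (E17.5) of all regions, counting regions with a peak in every list of the mark. H3K27ac gained between the stages at 40.03% of E17.5-only regions, against 15.7% of all regions. H3K27ac lost between the stages was found at 11.52% of E11.5-only regions and 1.88% of all regions. H3K27me3 of E17.5 covered 33.2% of E11.5-only and 17.1% of E17.5-only regions and 27.3% of all regions, and at 11.9% of E11.5-only regions it was present at E17.5 and not at E11.5, against 5.16% of all regions.

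In the 500 bp around the summit, the ratio of observed to expected CpG had a median of 0.726 in shared regions, 0.298 in E11.5-only and 0.403 in E17.5-only regions. GC content was 63.4%, 51.6% and 48.6% in the same order. The window met the usual thresholds of a CpG island in 67.7%, 7.09% and 5.44%. At promoters alone the shares were 74.2%, 10.8% and 6.89%. Most stage-only regions of both stages thus had no island-like window, and the CpG-dense Dmbx1 and Pax7 stretches printed above belong to the minority of 59 E11.5-only promoter regions with such a window. Regions present in some lists of a stage and not in others had a median ratio of 0.311, and 4.72% had such a window. A low CpG content was thus not particular to regions marked at one stage.

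**Figure D5:**
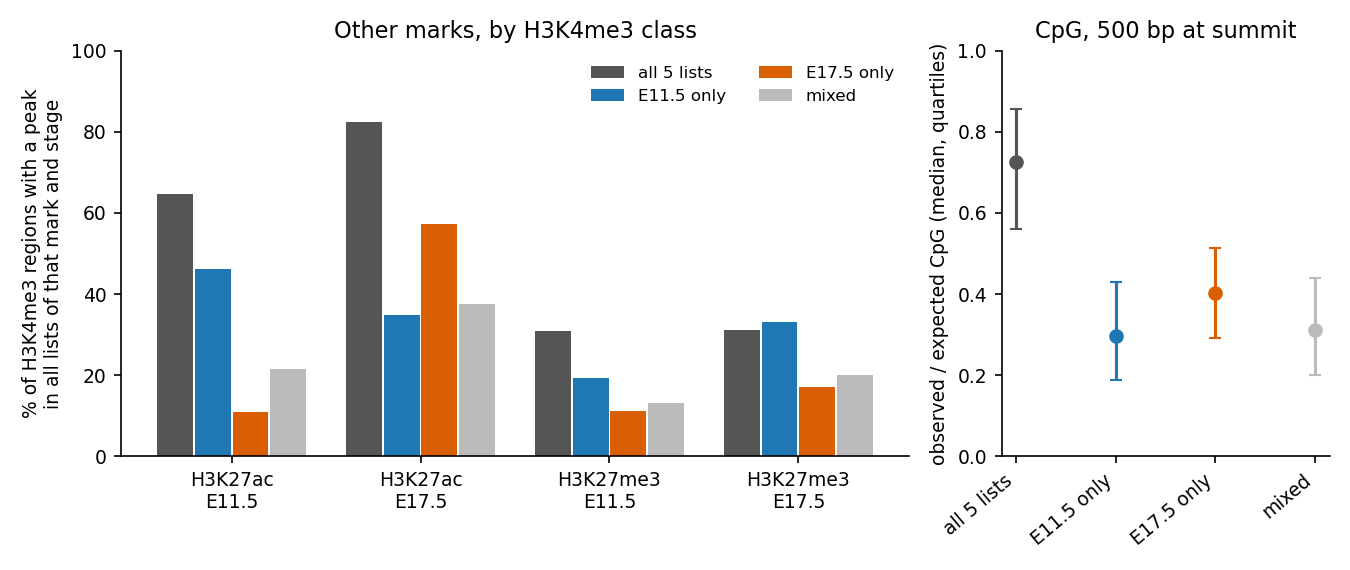
Percent of regions of each class with H3K27ac or H3K27me3 in every list of a stage, and the observed over expected CpG ratio around the summit (median and quartiles). E17.5-only regions go from 10.8% to 57.4% in H3K27ac. The median CpG ratio is 0.298 and 0.403 in the stage-only classes, against 0.726 in shared regions and 0.311 in mixed regions. Mixed regions were present in some lists of a stage and not in others.

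The humanized embryos gave H3K4me3 lists from other litters that played no part in defining the regions. Outside chromosome 13, which holds the edited locus, 896 of 1406 E11.5-only regions (63.7%) and 1023 of 1696 E17.5-only regions (60.3%) fell in the same class there, and 0 fell in the opposite class. Of the E11.5-only regions, 91.0% had a peak in some humanized E11.5 list and 8.61% in some humanized E17.5 list. For E17.5-only regions these shares were 14.3% (E11.5) and 96.7% (E17.5). In height, over the 16595 regions common to all 10 lists, 985 regions were called higher and 680 lower in wild type embryos, and 496 and 383 of them were called the same way in humanized embryos. These were 50.4% and 56.3% of the wild type calls and 59.3% and 56.9% of the humanized calls, and 0 regions were called in opposite directions.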

How the data were processed

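H3K4me3, H3K27ac and H3K27me3 ChIP-seq and RNA-seq of E11.5 and E17.5 mouse diencephalon were analysed. The authors aligned ChIP reads with Bowtie2 2.4.2 to mm39, the genome release GRCm39, removed duplicate and multi-mapping reads, and called peaks per replicate against input with MACS2 2.2.7.1. By the sample titles, H3K4me3 and H3K27me3 had separate inputs at E11.5, while at E17.5 they shared an input with the protein CTCF. The kind of input thus differed with the stage, and its effect was not tested. The deposited lists hold the fold enrichment as a ratio over background, and a −log10 q-value per peak. Counts per gene were made by the authors with STAR 2.7.9a. The depth of the ChIP libraries is unknown. RNA libraries held 18124370 to 24272569 counts on genes, and 48.1% to 55.3% of their pairs named no gene and were left out.

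Peaks on chromosomes 1 to 19 and X were merged at 1 bp overlap. The signal of a list in a region was its highest peak, and its width the summed peak widths. Log2 fold enrichment and log2 width were tested with limma 3.58.1 after centring each list on its median, and RNA was tested with edgeR 4.0.16 (TMM, low counts filtered), all with Benjamini-Hochberg adjustment at 0.05. p-values measure the spread between litter pools. Promoters lay within 1000 bp of a start site in GENCODE vM39, which is not the release the authors used, and 98.79% of the gene IDs of the RNA tables matched it. CpG values came from the GRCm39 sequence in 500 bp around the summit, and an island-like window had at least 50% GC and a CpG ratio of at least 0.6. Scripts were tested on simulated data.

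Replicate numbers were tested as pairs. Same-numbered lists had correlations of deviations of −0.0132 and −0.00743, and same-numbered RNA libraries of 0.00606, −0.504, 0.346 and 0.0549. Differently numbered RNA libraries ranged from −0.607 to 0.609. With 2 E11.5 lists, the deviations of 1 list mirror those of the other, so the list values cannot decide whether numbers pair samples. Each pool came from a single litter of 1 stage, and the samples were treated as unpaired. Named genes were the 10 strongest stage-only promoters a stage, the 8 largest rises and falls in height, the 5 in width, 5 alternative promoters and 3 distal regions a stage, and listed genes with a stage-only or called promoter. Some genes that these rules name are not reported here. The samples, lists and rules were chosen with earlier results of these data known. Alternatives were other centrings and filters, the replicate block, DESeq2 1.42.0, and leaving out each replicate. A limma fit with a variance trend was chosen after seeing the data.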

Additional observations from a re-analysis of the deposited data

Results flagged for a closer look

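In 124 groups of 4 libraries, RNA values of named genes and gene lists were examined for a library far from the other 3 of its group, and 18 were found, where chance alone gives about 1 in 20 groups. Of the 18, 12 were E17.5 replicate 1. In that library Calb2 was at 294.5 CPM (122.1 to 139.7 in the others), Cntfr at 87.2 (34.5 to 42.9), Foxp4 at 124.0 (50.7 to 59.7), Nup93 at 62.2 (38.5 to 41.6), Kcnh2 at 49.9 (19.7 to 22.9), Mfap4 at 10.1 (5.17 to 5.88) and Mfng at 5.90 (2.64 to 2.84). It was low for Dock9 at 58.3 CPM (150.8 to 164.6), Dlg1 at 26.4 (63.9 to 67.7) and Ipcef1 at 3.39 (9.85 to 10.8). The microglia genes summed to 158.8 CPM there (91.3 to 94.8 in the others) and the germline genes to 11.8 CPM (28.2 to 30.2).

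At E11.5, Dmbx1 was at 22.9 CPM in replicate 1 (43.7 to 47.0 in the others), Angptl2 at 34.2 CPM in replicate 2 (25.1 to 26.0), Six2 at 5.68 CPM in replicate 2 (3.57 to 3.76) and Zfp385b at 1.47 CPM in replicate 2 (2.29 to 2.45). Dock9 was at 28.3 CPM in replicate 3 (22.5 to 23.1) and Arhgef15 at 12.6 CPM in replicate 4 (15.0 to 15.3).

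A single region of 16595 changed differently with stage in humanized and wild type embryos by limma's interaction test, with 780 regions at an unadjusted p under 0.05. It is the promoter of Pwwp2a (chr11:43571706-43575023). Wild type fold enrichment was 56.0 and 68.4 at E11.5 against 52.4, 49.1 and 58.8 at E17.5, while humanized values were 8.09 and 6.48 against 77.9, 42.2 and 66.2. The stage changes differed by 3.31 on the log2 scale (SE 0.35, adjusted p = 0.00544), and both humanized E11.5 lists were below every other list.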

How the results depend on the processing

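Stricter peak significance lowered the E11.5-only count to 784. Leaving out 1 replicate gave 1536 to 3917 E11.5-only and 2084 to 2427 E17.5-only regions, and the E11.5-only count was the larger where 1 E11.5 list remained. In height, the higher and lower counts were 2913 and 445 without centring, 699 and 567 with the replicate block, 2054 and 3022 with regions absent from a list set to its lowest value, and 20 to 556 and 10 to 481 with 1 replicate left out. In width, the narrower count was 1795 with the replicate block and 1953 to 2503 with 1 replicate left out. The narrower count was the larger with the variance trend (3786 wider and 3888 narrower) and with quantile scaling (3410 and 3414). The Jaccard difference ranged from 0.148 to 0.166. Of 75 named height calls, 58 were kept under the replicate block, 12 and 21 without E11.5 replicate 1 and 2, and 47 to 52 without an E17.5 list. The 10 named width calls were all kept wherever tested, and at stricter significance 5 of the 10 could be tested. Of 43 named RNA calls, 40 to 43 were kept with 1 replicate left out and 43 under each other setting, the replicate block included. No named call in height, width or RNA reversed its direction under any setting run. The cause of these losses was not tested. Leaving out an E11.5 list leaves 1 list there, whose spread is then assumed to be that of the other stage. Peak lists without reads limit every comparison to what passed the caller, so a region absent from a list may still hold signal.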
